A study of Mus musculus with 6 samples.

Results

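The genes described here encode the protein subunits of the mitochondrial ribosome. They were taken as every gene symbol in the counts that starts with Mrpl or Mrps, goes on with a number and may end in 1 letter. This gave 77 of 35976 genes, 48 named for the large subunit (Mrpl) and 29 named for the small subunit (Mrps), on 17 chromosomes. The mitochondrial ribosome translates the few membrane subunits of the respiratory chain and ATP synthase that mitochondrial DNA encodes. Its rRNAs are transcribed inside the organelle, but its proteins are all products of nuclear genes, made on cytosolic ribosomes and imported. Some of these proteins descend from bacterial ribosomal proteins and others exist only in mitochondrial ribosomes. Neurons rely on oxidative phosphorylation for much of their ATP, so the assembly of this ribosome bears on their energy supply.

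Expression was measured by bulk RNA sequencing of amygdala neurons isolated from male C57BL/6J mice. In the sgEgfr group (3 libraries) an adeno-associated virus carried guides to Egfr, which encodes a receptor for epidermal growth factor, and in the sgRosa group (3 libraries) it carried control guides to Rosa. In both groups Cas9 was driven by GfaABC1D, an astrocyte promoter, so editing was directed to astrocytes and not to the neurons that were isolated. In both groups the virus was expressed for more than 2 weeks, and the mice then had 7 days of restraint, then fear conditioning on 1 day and extinction training on 3 days. Neurons were enriched magnetically from dissociated tissue, and each library was made from 5 ng of RNA. The age of the mice and the pooling of animals are not given in the labels. The comparison sets neurons beside Egfr-targeted astrocytes against neurons beside control astrocytes, after stress and fear learning in both groups.

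Total counts ranged from 2520426 to 4849404 in the sgEgfr libraries and from 2348897 to 10152812 in the sgRosa libraries. Egfr itself had 6, 18 and 6 counts in sgEgfr and 1, 26 and 23 counts in sgRosa, which does not check the edit, since the libraries were enriched for neurons. Pan-neuronal markers were present in every library, at mean levels of 7.00 to 7.63 log2 CPM (read counts scaled to a common library size, with TMM factors) in sgEgfr and 6.46 to 7.61 in sgRosa. Other cells were also represented, with oligodendrocyte markers at 8.26 to 9.84 log2 CPM in sgEgfr and 8.69 to 10.66 in sgRosa. Astrocyte markers were at 4.12 to 6.17 log2 CPM in sgEgfr and 5.01 to 6.10 in sgRosa. Endothelial markers were at 6.65 to 6.87 log2 CPM in sgEgfr and 5.85 to 7.88 in sgRosa. Some libraries stood apart. Mitochondrially encoded transcripts took 29.8% of the counts of sgRosa replicate 1 and 10.3% to 15.7% of those of the other 5 libraries. The choroid plexus gene Ttr had 8684 counts in sgEgfr replicate 1 and 33901 in sgRosa replicate 3, against at most 126 elsewhere. For the family as a whole and for several named members, results are given below with and without these libraries. Most other gene lists are given with all 6 libraries only. In bulk RNA a lower level can mean fewer cells of a type or less RNA per cell, and these cannot be told apart.

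The promoters of a few members are shown first, because the members are spread over the genome and what they have in common upstream is a matter of sequence. Below are the 180 bases from 150 before to 30 after the RefSeq start of Mrps21 and Mrpl52, the members with the most negative log2 fold changes, and of Mrps5 and Mrpl57, those with the most positive. They read 5′ to 3′ on the gene's strand (RefSeq, GRCm38.p6). Capitals mark CCGGAAG or its reverse complement CTTCCGG, the core recognised by ETS factors, a family that includes the GABP activator of nuclear mitochondrial genes.
Mrps21 (chr3:95871485-95871664, minus strand): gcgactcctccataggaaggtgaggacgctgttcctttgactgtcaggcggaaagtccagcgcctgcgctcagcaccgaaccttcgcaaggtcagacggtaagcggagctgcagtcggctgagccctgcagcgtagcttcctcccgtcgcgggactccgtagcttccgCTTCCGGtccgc
Mrpl52 (chr14:54426759-54426938, plus strand): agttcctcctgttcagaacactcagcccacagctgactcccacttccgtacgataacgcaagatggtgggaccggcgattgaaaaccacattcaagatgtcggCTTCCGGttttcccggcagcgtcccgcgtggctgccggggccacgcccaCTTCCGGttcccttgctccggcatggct
Mrps5 (chr2:127587276-127587455, plus strand): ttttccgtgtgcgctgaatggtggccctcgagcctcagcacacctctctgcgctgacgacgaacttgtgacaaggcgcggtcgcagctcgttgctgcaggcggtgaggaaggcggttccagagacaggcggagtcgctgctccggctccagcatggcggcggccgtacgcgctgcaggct
Mrpl57 (chr14:57826089-57826268, plus strand): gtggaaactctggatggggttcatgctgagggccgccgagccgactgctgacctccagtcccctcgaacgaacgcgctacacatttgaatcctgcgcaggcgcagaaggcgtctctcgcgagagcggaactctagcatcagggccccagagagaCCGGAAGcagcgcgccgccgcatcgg

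The ETS core stood in the windows of Mrps21, Mrpl52 and Mrpl57 and not in that of Mrps5. It also stood in the windows, not printed here, of Mrpl33, the next most negative member, and Mrps22, the next most positive. RefSeq windows of 250 bases before to 50 after a start were matched for 68 of the 77 members (74 windows). On either strand, CCGGAAG occurred in 33.8% of the member windows and in 8.86% of all 32851 windows in the table. The YY1 motif AAGATGGCG occurred in 10.8% of member windows and 1.40% of all windows. The GC box GGGCGG was in 52.7% of member windows and 35.7% of all windows, and TATAAA in 6.76% and 13.6%. None of these 4 motifs contains another, and the table includes windows of noncoding and tissue-restricted genes. Member windows were also richer in G and C, with a median of 58.5% against 52.7% for all windows, and the motif shares are not corrected for this. A match is a run of letters and not a shown binding site. Fold changes were close with and without the ETS core. The median log2 fold change, sgEgfr over sgRosa, was -0.37 for the 25 members with CCGGAAG in a window and -0.33 for the 43 without. For the YY1 motif the medians were -0.32 for 8 members with it and -0.36 for 60 without.

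No member passed the test, and most members lay slightly lower in sgEgfr. All 77 were abundant enough to be tested, with at least 6 counts in every library. Their levels averaged between 4.15 and 119 CPM over the 6 libraries. With the quasi-likelihood test of edgeR, adjusted by Benjamini-Hochberg over 13159 genes, 0 members were called at an adjusted p under 0.05 (smallest 0.820), where 0% of all genes were called. At an unadjusted p under 0.05, 9 members were lower and 0 higher, which is 9 of 77 against a background of 2.72% of all genes lower and 3.05% higher. DESeq2 and limma-voom also called 0 members, with 6 members (7.79%) each at an unadjusted p under 0.05, all lower in sgEgfr. Over all genes 2.25% were lower at that threshold by DESeq2 and 6.95% by limma-voom, so the limma-voom share of members was near the background. In either direction DESeq2 had 787 and limma-voom 1978 of the 13159 genes there. The DESeq2 adjusted p was undefined for 23 members, and DESeq2 called 0.251% of all genes, 0.0152% as lower. limma-voom called 0% of all genes.

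The shift was small and shared by nearly the whole family. The log2 fold change was negative for 73 of 77 members (94.8%), where it was negative for 53.8% of all genes tested. Its median was -0.33 over the members and -0.04 over all genes. The middle 50% of members spanned -0.46 to -0.14, and the SD between members was 0.247. The groups did not overlap for 20 members, each lower in sgEgfr, which is 26.0% of members where 7.6% of all genes were separated in that direction. No member was separated with sgEgfr higher, where 5.8% of all genes were.

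**Figure D1:**
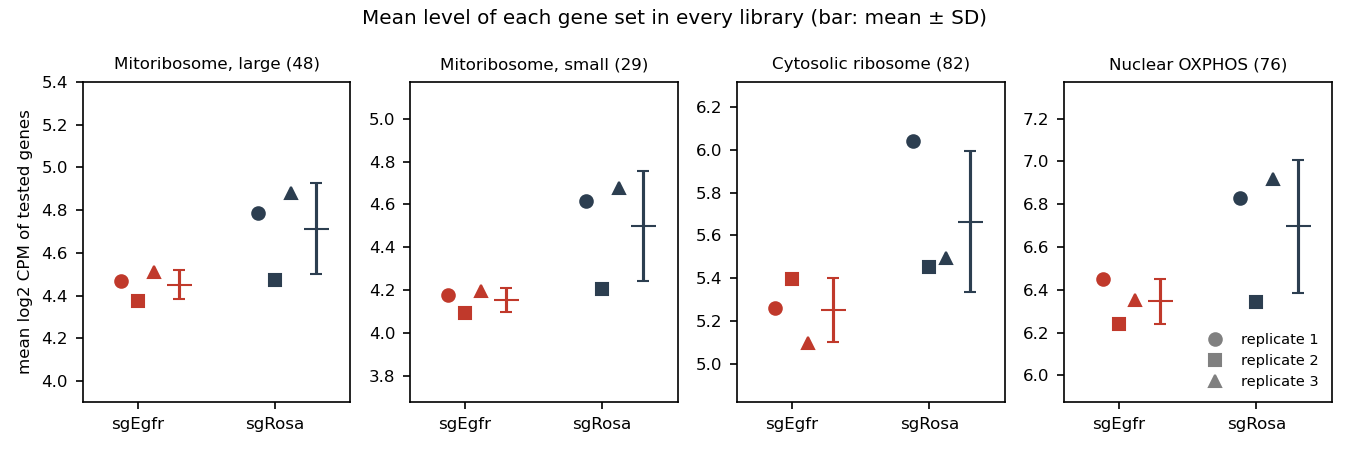
Mean log2 CPM of the tested genes of 4 sets in every library (points, sgEgfr left of sgRosa; bars, mean and SD of 3 libraries; each axis spans 1.5 log2 units). In the large and small mitoribosomal sets sgRosa replicates 1 and 3 lie above the sgEgfr libraries, and sgRosa replicate 2 lies within their range for the large subunit and just above it for the small.

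The difference lay mainly in sgRosa replicates 1 and 3. The mean log2 CPM of the 77 members was 4.36, 4.27 and 4.39 in sgEgfr replicates 1, 2 and 3, against 4.72, 4.37 and 4.80 in sgRosa replicates 1, 2 and 3. The sgEgfr libraries were close to one another (4.34 ± 0.0629, SD, n = 3), while the sgRosa libraries were spread (4.63 ± 0.23, SD, n = 3), and the groups overlapped through sgRosa replicate 2. Gene by gene the picture was the same. sgRosa replicate 3 lay above every sgEgfr library for 66 members and sgRosa replicate 1 for 56, but sgRosa replicate 2 for 24, and 35 of its values fell inside the sgEgfr range. For all tested genes these shares were 35.9%, 35.4% and 32.0%, so for sgRosa replicate 2 the members' 31.2% was near the background. Of the 77 members, 38 had their highest level in sgRosa replicate 3 and 32 in sgRosa replicate 1.

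These libraries also differed in other respects, whose part in the result was not tested. sgRosa replicate 3 had the most counts and, within its group, the highest choroid plexus and pan-neuronal marker means. Its choroid plexus mean was 6.96 log2 CPM, against 7.03 in sgEgfr replicate 1 and at most 2.60 in the other 4. The summed level of the 7 tested choroid plexus markers ran from 14.8 to 2457 CPM in sgEgfr and from 25.6 to 3547 CPM in sgRosa, with Ttr at 0 counts in sgEgfr replicate 3 and Folr1 at 0 in sgRosa replicate 1. Microglial markers were higher on average in sgEgfr (9 of 9 tested with positive log2 fold changes, median 1.36), as were erythroid markers (5 of 5, median 1.78). The groups overlapped in the mean of either set. The microglial mean was 4.93, 5.52 and 1.81 log2 CPM in sgEgfr replicates 1, 2 and 3, against 2.31, 3.44 and 3.98 in sgRosa. The erythroid mean was 7.59, 9.14 and 6.31 log2 CPM in sgEgfr, against 7.00, 5.85 and 5.78 in sgRosa. No microglial or erythroid marker passed by edgeR or limma-voom, and 1 erythroid marker passed by DESeq2. sgRosa replicate 1 had the largest mitochondrially encoded share and the highest oligodendrocyte mean. The endothelial mean was highest in sgRosa replicate 1 (7.88 log2 CPM) and lowest in sgRosa replicate 3 (5.85 log2 CPM). Summed oligodendrocyte markers (12 of 12 tested, none at 0) ran from 22726 to 58201 CPM in sgEgfr and from 24731 to 73005 CPM in sgRosa, and all 12 had negative log2 fold changes, as most members did (median -0.79). Summed pan-neuronal markers (16 of 16 tested, none at 0) ran from 3775 to 5960 CPM in sgEgfr and from 2562 to 6225 CPM in sgRosa, and all 16 had positive log2 fold changes (median 0.35). Without sgRosa replicate 3 the members' median log2 fold change was -0.22 with 56 of 77 negative. Without sgRosa replicate 1 it was -0.24 with 73 negative, and without sgRosa replicate 3 and sgEgfr replicate 1 together, the libraries with choroid plexus RNA, it was -0.23 with 57 negative.

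As a share of all counts, rather than gene by gene, the family stood out in 1 library. The 77 genes took 0.193%, 0.191% and 0.205% of counts in sgEgfr replicates 1, 2 and 3, against 0.207%, 0.198% and 0.296% in sgRosa replicates 1, 2 and 3. sgRosa replicate 3 was higher than every other library, and sgRosa replicates 1 and 2 were close to the sgEgfr libraries. The shares of sgRosa replicate 1 are taken of a total that includes its large mitochondrially encoded fraction.

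**Figure D2:**
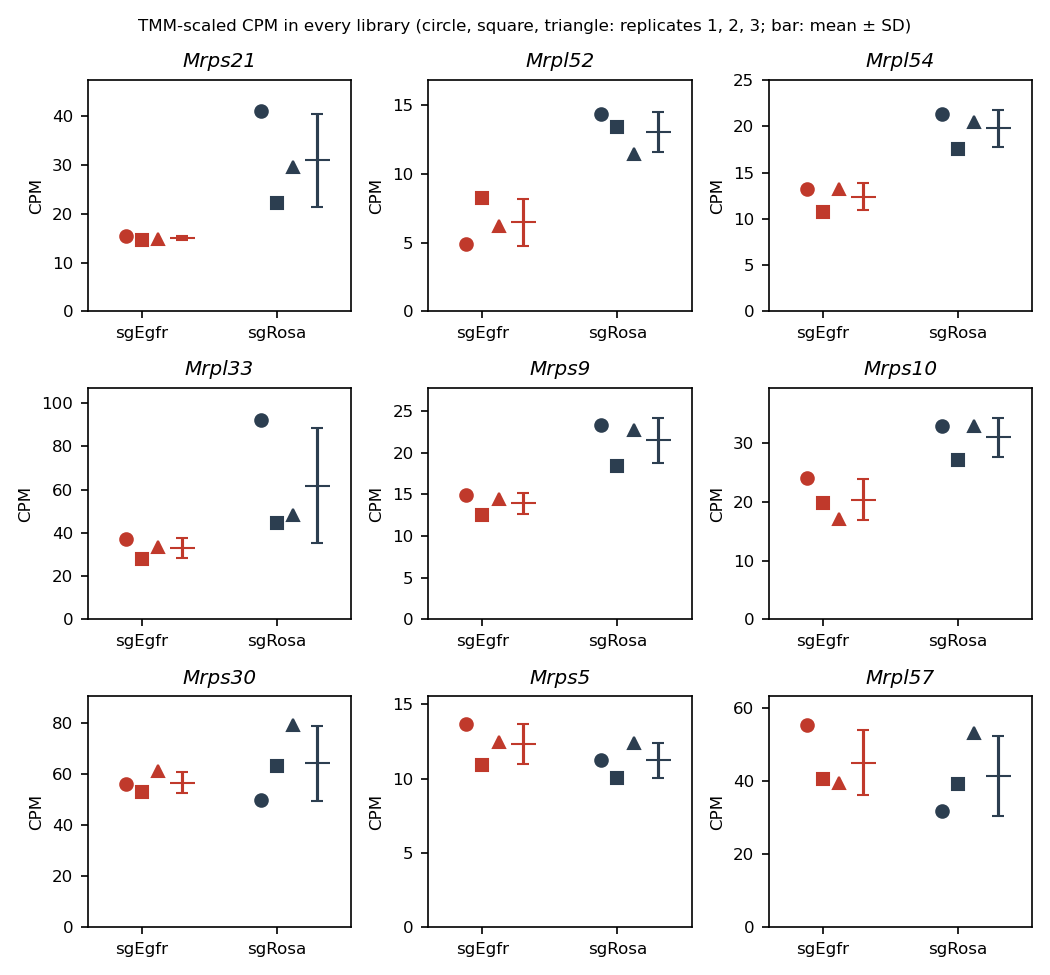
TMM-scaled CPM of 9 members in every library (points, sgEgfr left of sgRosa; bars, mean and SD of 3 libraries; axes start at 0). Mrps21, Mrpl52, Mrpl54, Mrpl33, Mrps9 and Mrps10 have separated groups, while Mrps30, Mrps5 and Mrpl57 overlap.

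Among small-subunit genes, Mrps21 had the most negative log2 fold change of the family. It encodes a homologue of a bacterial small-subunit protein and lies on chromosome 3 from 95862634 to 95871519 (minus strand, GRCm38). Mrps21 was at 15.6, 14.7 and 14.8 CPM in sgEgfr replicates 1, 2 and 3, against 41.1, 22.1 and 29.7 CPM in sgRosa replicates 1, 2 and 3. The sgEgfr values were nearly equal and lay below all sgRosa values. Its log2 fold change was -1.04 (SE 0.28) and its edgeR adjusted p was 0.820. The log2 fold change was between -1.21 and -0.74 in all 17 alternative settings.

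Mrps9 (chromosome 1, 42851233 to 42905683, plus strand) and Mrps10 (chromosome 17, 47368887 to 47381417, plus strand) encode proteins of the head of the small subunit with bacterial counterparts. Mrps9 was at 14.9, 12.5 and 14.4 CPM in sgEgfr, against 23.3, 18.4 and 22.8 CPM in sgRosa. Mrps10 was at 24.1, 19.9 and 17.1 CPM in sgEgfr, against 32.9, 27.1 and 32.9 CPM in sgRosa. Both had separated groups, with log2 fold changes of -0.63 (SE 0.24) and -0.60 (SE 0.23), and neither passed by edgeR (adjusted p = 0.820 each).

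Mrps28 was at 7.04, 8.03 and 7.01 CPM in sgEgfr and at 18.0, 9.19 and 11.2 CPM in sgRosa, so its separation from sgRosa replicate 2 was narrow. Its log2 fold change of -0.79 (SE 0.33) became -0.45 without sgRosa replicate 1. Mrps15 and Mrps33 had small differences but tight groups. Mrps15 averaged 26.4 ± 0.580 CPM in sgEgfr and 35.7 ± 1.32 CPM in sgRosa (SD, n = 3 each), a log2 fold change of -0.44. Mrps33 averaged 24.6 ± 1.72 CPM in sgEgfr and 33.4 ± 2.21 CPM in sgRosa, a log2 fold change of -0.45. Mrps15 is the counterpart of a bacterial protein that binds the small-subunit rRNA early in assembly, while Mrps33 has no bacterial counterpart.

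The Mrps18 paralogs, which are related to a bacterial small-subunit protein and occupy different places on the ribosome, were measured at very different levels. Mrps18c was the most abundant of them, at 48.6, 53.8 and 36.6 CPM in sgEgfr and 62.4, 52.6 and 70.4 CPM in sgRosa. Mrps18a was at 35.4, 22.3 and 30.0 CPM in sgEgfr and 49.2, 31.7 and 49.1 CPM in sgRosa. Mrps18b had few reads, at 3.20, 2.01 and 5.46 CPM in sgEgfr and 6.75, 4.18 and 4.77 CPM in sgRosa. The groups overlapped for each of the 3 genes, and their log2 fold changes were -0.42 (SE 0.24) for Mrps18c, -0.57 (SE 0.28) for Mrps18a and -0.60 (SE 0.48) for Mrps18b. Single libraries moved these values. Mrps18b was at -0.98 without sgEgfr replicate 3, -0.28 without sgEgfr replicate 2 and -0.37 without sgRosa replicate 1, and Mrps18c was at -0.25 without sgEgfr replicate 3.

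The most abundant small-subunit genes per length were Mrps18c, Mrps24 and Mrps14, at 50.3, 34.2 and 31.6 CPM per kb of annotated exons averaged over the 6 libraries. Mrps24 averaged 45.2 ± 1.23 CPM in sgEgfr and 55.2 ± 11.6 CPM in sgRosa (SD, n = 3 each). On the same strand, exons of Mrps24 overlap those of Urgcp and exons of Mrps18c those of Gm43511, so some of their reads are uncertain. Mrps14 was at 111, 87.2 and 95.9 CPM in sgEgfr and 93.6, 91.5 and 138 CPM in sgRosa. Mrps24 and Mrps14 overlapped between groups. The log2 fold change of Mrps24 was -0.29, or -0.12 without sgRosa replicate 3, and that of Mrps14 was -0.14, or 0.079 without sgRosa replicate 3. Mrps36, which despite its symbol encodes a subunit of the oxoglutarate dehydrogenase complex of the citric acid cycle, was scarce. It was at 3.63, 2.90 and 2.34 CPM in sgEgfr and 7.31, 3.76 and 4.95 CPM in sgRosa, with a log2 fold change of -0.84 (SE 0.42) and groups that only just separated. Without sgRosa replicate 1 the log2 fold change was -0.54. Its floor of 3 counts was 0.640 to 1.17 CPM in sgEgfr and 0.270 to 1.25 CPM in sgRosa, counting error only.

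Among large-subunit genes, Mrpl52, a subunit with no bacterial counterpart, had the most negative log2 fold change. It lies on chromosome 14 from 54426909 to 54429756 (plus strand). Mrpl52 was at 4.91, 8.26 and 6.23 CPM in sgEgfr, against 14.3, 13.4 and 11.4 CPM in sgRosa. The groups were separated, and sgRosa replicate 2 lay with its own group here. Its log2 fold change was -1.0 (SE 0.31; edgeR adjusted p = 0.820).

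Mrpl54, also without a bacterial counterpart (chromosome 10, 81264713 to 81266934, minus strand), was at 13.2, 10.7 and 13.2 CPM in sgEgfr, against 21.4, 17.5 and 20.4 CPM in sgRosa. The groups were again separated, with a log2 fold change of -0.68 (SE 0.24). Mrpl33, a homologue of a bacterial large-subunit protein, was at 37.1, 27.9 and 33.5 CPM in sgEgfr, against 92.2, 44.7 and 48.2 CPM in sgRosa. Its sgRosa mean rested on replicate 1, without which the log2 fold change of -0.91 (SE 0.33) was -0.48.

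Mrpl55, Mrpl18 and Mrpl20, each with a bacterial counterpart, had the next smallest p among large-subunit genes. Mrpl55 averaged 20.8 ± 3.29 CPM in sgEgfr and 30.9 ± 5.45 CPM in sgRosa (SD, n = 3 each), a log2 fold change of -0.58. Mrpl18 averaged 30.5 ± 3.31 CPM in sgEgfr and 46.5 ± 13.0 CPM in sgRosa, a log2 fold change of -0.61 that was -0.34 without sgRosa replicate 1, and its exons overlap those of Tcp1 on the opposite strand. Mrpl20 averaged 40.1 ± 0.350 CPM in sgEgfr and 55.8 ± 11.4 CPM in sgRosa, a log2 fold change of -0.48. All 3 had separated groups and none passed. The groups of Mrpl55 only just separated, at 24.5 CPM in sgEgfr replicate 3 and 24.6 CPM in sgRosa replicate 2.

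The most abundant large-subunit genes per length were Mrpl28, Mrpl53 and Mrpl27, at 54.3, 43.4 and 36.6 CPM per kb. Mrpl28 was at 74.9, 62.3 and 75.6 CPM in sgEgfr and 63.8, 73.1 and 99.6 CPM in sgRosa, so its groups overlapped. Mrpl53 averaged 29.4 ± 0.770 CPM in sgEgfr and 39.2 ± 7.59 CPM in sgRosa, and Mrpl27 averaged 33.6 ± 1.02 CPM in sgEgfr and 38.5 ± 8.19 CPM in sgRosa (SD, n = 3 each). Their log2 fold changes were -0.16 for Mrpl28, -0.42 for Mrpl53, whose groups only just separated, and -0.20 for Mrpl27, whose groups overlapped. Without sgRosa replicate 3 Mrpl28 was at 0.048, and without sgRosa replicate 1 Mrpl27 was at -0.04. Exons of Mrpl53 and Mrpl27 overlap other genes on the opposite strand, and those of Mrpl53 also overlap Gm42688 on the same strand.

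The 4 members with positive log2 fold changes were Mrps5 (0.13, SE 0.26), Mrpl57 (0.12, SE 0.27), Mrps22 (0.10, SE 0.26) and Mrpl45 (0.06, SE 0.27). Mrpl45, which holds the ribosome to the inner membrane near the peptide exit, was outside the rule for named genes and is given to complete the 4. Mrps5 was at 13.6, 10.9 and 12.5 CPM in sgEgfr and 11.2, 10 and 12.4 CPM in sgRosa. Mrpl57 was at 55.2, 40.6 and 39.4 CPM in sgEgfr and 31.8, 39.3 and 53.2 CPM in sgRosa. The groups overlapped for all 4. With 1 library left out, Mrps5 ranged from 0.05 to 0.24, Mrps22 from 0.02 to 0.29 and Mrpl57 from -0.056 to 0.35. Mrps5 encodes a homologue of a bacterial small-subunit protein, and Mrpl57 and Mrps22 encode subunits found only in mitochondrial ribosomes.

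**Figure D3:**
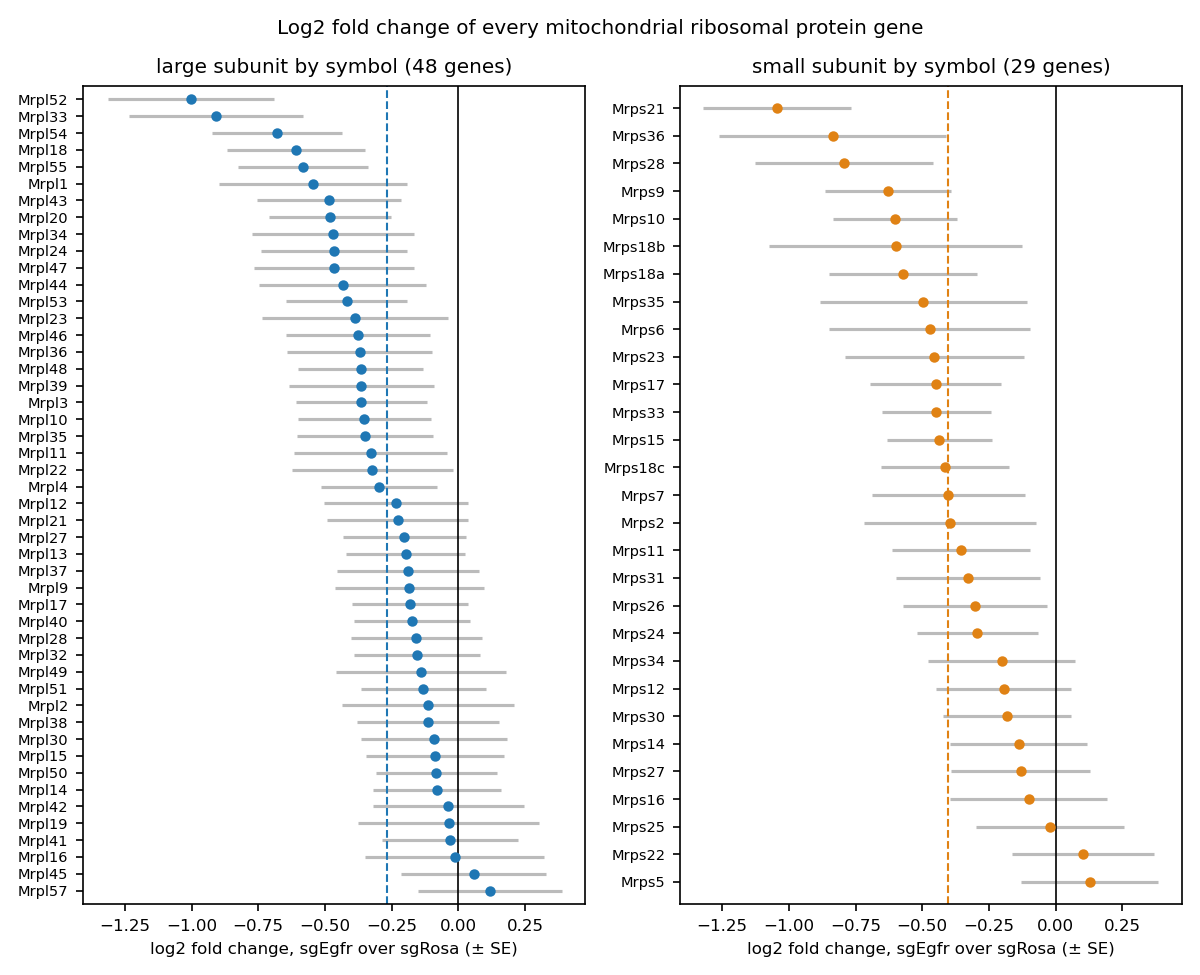
Log2 fold change, sgEgfr over sgRosa, of each of the 77 members with its standard error, large subunit left and small subunit right (dashed line, median of the subunit; solid line, 0). The large-subunit median is -0.27 and the small-subunit median -0.40, and 4 members lie to the right of 0.

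The small-subunit genes had the more negative median. It was -0.40 for the 29 small-subunit members (27 negative) and -0.27 for the 48 large-subunit members (46 negative). At an unadjusted p under 0.05 there were 4 small-subunit and 5 large-subunit genes, all lower in sgEgfr, where 2.72% of all genes were lower. The groups did not overlap for 8 small-subunit (27.6%) and 12 large-subunit (25%) genes, each lower in sgEgfr. Of all genes tested, 7.6% were separated in that direction. The small-subunit mean was 4.18, 4.09 and 4.19 log2 CPM in sgEgfr, against 4.62, 4.20 and 4.68 log2 CPM in sgRosa, separated by a narrow margin at sgRosa replicate 2. The large-subunit mean was 4.47, 4.38 and 4.51 log2 CPM in sgEgfr, against 4.79, 4.47 and 4.88 log2 CPM in sgRosa, and the groups overlapped. Within each library the large-subunit mean exceeded the small-subunit mean by 0.292, 0.285 and 0.315 log2 CPM in sgEgfr, against 0.171, 0.270 and 0.201 log2 CPM in sgRosa. With genes placed by symbol these differences did not overlap between groups, with sgRosa replicate 2 nearest to sgEgfr. The difference between the subunit medians was 0.136 log2 units and stayed positive in all 17 alternatives (0.0792 to 0.171), which share these libraries.

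The subunit in the symbol is not always that of the protein. Mrps30 and Mrps18a are found in the large subunit of the mammalian mitochondrial ribosome. Mrps30 was at 56.1, 52.9 and 61.2 CPM in sgEgfr and 50.1, 63.1 and 79.4 CPM in sgRosa, so its groups overlapped and its log2 fold change of -0.18 (SE 0.24) was 0.0035 without sgRosa replicate 3. With both genes counted as large-subunit and Mrps36 left out, the medians were -0.40 for 26 small-subunit genes and -0.27 for 50 large-subunit genes. The separations by library did not hold under this placement. The large-subunit mean then exceeded the small-subunit mean by 0.351, 0.303 and 0.343 log2 CPM in sgEgfr, against 0.221, 0.328 and 0.258 log2 CPM in sgRosa, and the groups overlapped at sgRosa replicate 2. The small-subunit mean of sgRosa replicate 2, 4.187 log2 CPM, then lay inside the sgEgfr range of 4.103 to 4.203. By ancestry, the 46 members listed with a bacterial homologue had a median of -0.35 (45 negative). The 30 listed as mitochondria-specific had a median of -0.25 (27 negative). Those 30 include Mrps18a and Mrps18b, although both are related to a bacterial protein, so the split is approximate. The groups did not overlap for 14 of the 46 (30.4%) and 5 of the 30 (16.7%), each lower in sgEgfr. Of all genes tested, 7.6% were separated in that direction.

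Mrpl46 and Mrps11, both outside the rule for named genes, form a pair on chromosome 7 whose 5′ ends overlap on opposite strands. Mrpl46 averaged 24.2 ± 4.73 CPM in sgEgfr and 31.0 ± 7.46 CPM in sgRosa, and Mrps11 averaged 13.1 ± 2.04 CPM in sgEgfr and 16.8 ± 2.46 CPM in sgRosa (SD, n = 3 each). Their log2 fold changes were -0.37 and -0.35. In all, exons of 27 members overlap a gene on the opposite strand in GENCODE, and no source used here gives the strand setting of the counting, so reads of such pairs cannot be told apart. The median log2 fold change was -0.35 for these 27 members and -0.33 for the other 50. Exons of 8 members, Mrpl33 among them, overlap a gene on the same strand. Reads shared with processed pseudogenes were likewise not separated.

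The cytosolic ribosomal protein genes, whose products form the ribosome outside mitochondria, were also lower in sgEgfr as a set, but in another arrangement of libraries. Of 86 such genes 82 were tested, and 78 had negative log2 fold changes, with a median of -0.45. Their mean log2 CPM was 5.26, 5.40 and 5.10 in sgEgfr replicates 1, 2 and 3, against 6.04, 5.45 and 5.49 in sgRosa replicates 1, 2 and 3. Here sgRosa replicate 1 stood alone, while sgRosa replicates 2 and 3 lay just above the highest sgEgfr library. sgRosa replicate 3 exceeded every sgEgfr library for 54 of 82 cytosolic genes and for 66 of 77 mitochondrial ones, and sgRosa replicate 2 for 46 and 24. No cytosolic gene passed by edgeR (smallest adjusted p = 0.820). At an unadjusted p under 0.05, 18 of the 82 were lower, where 2.72% of all genes were. The smallest p was that of Rps19, at 49.8 ± 5.52 CPM in sgEgfr and 108 ± 58.0 CPM in sgRosa (SD, n = 3 each), followed by Rpl35 and Rpl41.

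Which of the ribosomes had the lower median depended on 1 library. The mitochondrial median minus the cytosolic median was 0.118 log2 units. It was -0.0404 without sgRosa replicate 1 and 0.305 without sgRosa replicate 3. Within a library, the mitochondrial mean minus the cytosolic mean was -0.904, -1.13 and -0.706 log2 CPM in sgEgfr, against -1.32, -1.08 and -0.690 log2 CPM in sgRosa, and the groups overlapped. Per length, the median level was 9.04 CPM per kb for the mitochondrial and 24.2 CPM per kb for the cytosolic genes. The cytosolic medians by subunit were -0.45 for 49 large-subunit and -0.46 for 33 small-subunit genes.

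Other parts of the mitochondrial translation system mostly had the same sign, with medians nearer to 0. The 6 mitoribosomal proteins with other symbols had a median of -0.26 with 5 negative. The lowest of them was Chchd1 at -0.50 (27.2 ± 4.54 CPM in sgEgfr and 38.5 ± 3.44 CPM in sgRosa), and Ptcd3 was at 0.10. Of 21 tested mitoribosome assembly factors 19 were negative (median -0.29). At an unadjusted p under 0.05, 3 of the 21 were lower, where 2.72% of all genes were. The 3 factors were Mpv17l2 (-0.85), the GTPase gene Mtg2 (-0.74) and Fastkd2 (-0.70), whose product binds the large-subunit rRNA.

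Of 13 translation factors 11 were negative (median -0.15). Taco1, a translational activator of a cytochrome oxidase subunit, was at -1.16 (SE 0.59; 1.37 ± 0.927 CPM in sgEgfr and 3.31 ± 0.789 CPM in sgRosa). Taco1 was near the floor, and its 0.390 CPM in sgEgfr replicate 3 lay below the floor of 3 counts there, 1.17 CPM. Of 17 mitochondrial tRNA synthetases 12 were negative (median -0.27), and the smallest p was that of Cars2 (-0.62). Of 16 tested genes for the transcription and upkeep of mitochondrial DNA 11 were negative (median -0.14). These included Slirp (-0.45) and Lrpprc (-0.42), whose products stabilise mitochondrial mRNAs together, and the regulator Nrf1 (-0.39). None of these passed by edgeR over all genes.

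The nuclear genes of oxidative phosphorylation, whose products assemble with those made on the mitochondrial ribosome, had the library arrangement of the mitoribosomal genes. Their mean log2 CPM (76 tested) was 6.45, 6.24 and 6.35 in sgEgfr replicates 1, 2 and 3, against 6.83, 6.34 and 6.92 in sgRosa replicates 1, 2 and 3. sgRosa replicate 2 again lay within the sgEgfr range. Of the 76 genes 75 were negative, with a median of -0.36. The median was -0.30 without sgRosa replicate 1 and -0.27 without sgRosa replicate 3. The 8 tested mitochondrially encoded genes were highest in sgRosa replicate 1, at 12.19, 11.83 and 12.07 log2 CPM in sgEgfr and 13.64, 12.27 and 11.51 log2 CPM in sgRosa. sgRosa replicate 3, where the mitoribosomal genes were highest, had the lowest value for these.

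Short genes were lower in sgEgfr across the whole data set, and the mitoribosomal genes are short. The part of length in the members' lower levels was not tested. The median exonic length was 2255 bp for the members and 4649 bp for the 12591 tested genes with a length, and 40.3% of members against 11.4% of those genes were under 2000 bp. The median log2 fold change of all tested genes was -0.30 for lengths under 1000 bp, -0.27 from 1500 to 2000 bp, -0.02 from 4000 to 6000 bp and 0.09 above 6000 bp. The members' median lay below that of all genes in each of the 7 bins, by almost nothing from 3000 to 4000 bp. In the shortest bin the median of the 9 members was -0.42. Among the 12 members annotated above 6000 bp it was -0.28 with 11 negative.

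With each library's trend on length removed, the members' median was -0.20 with 59 of 77 negative, against -0.05 for all genes. Mrps21 was then at -0.74 and Mrpl52 at -0.75. The lengths are sums of all annotated exons and are too long for genes with distant alternative starts, such as Mrpl33, whose RefSeq start lies 17016 bp inside its GENCODE gene.

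**Figure D4:**
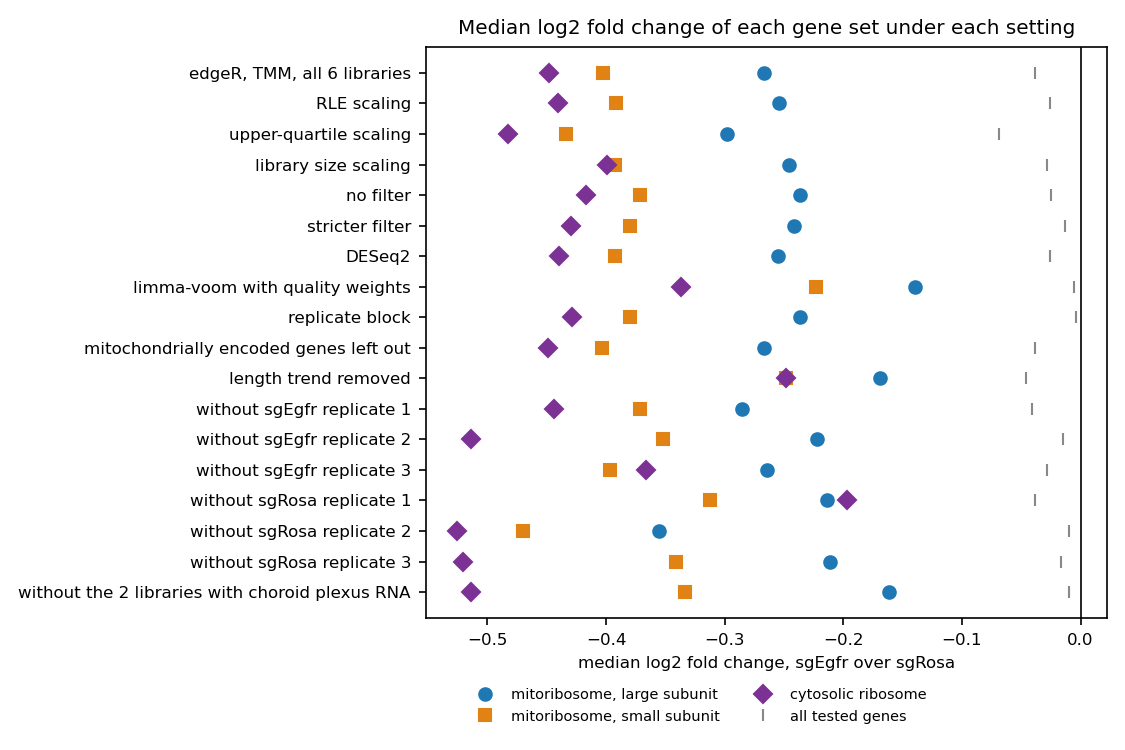
Median log2 fold change, sgEgfr over sgRosa, of the large-subunit, small-subunit and cytosolic ribosomal genes and of all tested genes under the setting reported and 17 alternatives (rows). The mitoribosomal medians stay negative in every row, with the small subunit below the large, and the cytosolic median is the lowest of the 3 except with the length trend removed (about equal to the small subunit), without sgEgfr replicate 3 and without sgRosa replicate 1.

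In all 17 alternatives the members' median stayed negative, from -0.38 without sgRosa replicate 2 to -0.16 by limma-voom with sample weights, and that of all genes lay between -0.07 and -0.0038. The number of negative members ranged from 56 to 73 of 77. The number at an unadjusted p under 0.05 ranged from 2 (2.60%) to 14 (18.2%), all lower in sgEgfr, while the share of all genes lower at that threshold ranged from 0.487% to 8.65%. The members' share was near that of all genes without sgRosa replicate 3 (9.09% of members and 8.65% of all genes) and below it without both libraries with choroid plexus RNA (2.60% and 4.13%). The smallest adjusted p of any member in any alternative was 0.143, without sgRosa replicate 3.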

How the data were processed

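The data were raw read counts per gene symbol in 6 libraries, as deposited by the authors without normalization, and libraries were grouped by their titles. In the table of the whole series 6 columns were identical to the separate tables, and 3 matched no sample and were not used. Per the submitters' processing notes, fastp 0.23.2, STAR 2.7.5c, featureCounts 2.0.1 and edgeR 3.42.4 were used with mm10, and options, annotation and strand setting are not given in the sources used here.

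Of 35976 genes, 13159 passed filterByExpr (minimum count 10, minimum total 15). Groups were compared with edgeR 4.0.16 (R 4.3.3): TMM scaling, robust quasi-likelihood test, Benjamini-Hochberg adjustment over all tested genes, threshold 0.05. Standard errors were derived from the fold change and F. List means use log2 CPM with a prior count of 2. The script was tested on simulated counts. Alternatives were other scalings and filters, DESeq2 1.42.0, limma-voom (limma 3.58.1), a replicate block, removal of mitochondrially encoded genes, a length correction (lowess span 0.3) and leaving libraries out.

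The members and lists were chosen with earlier results of these data known, so lists carry no test and are described by counts and medians. Named members were, per subunit, the 6 with the smallest p and the 3 most abundant per kb, the 3 with the most positive and the 3 with the most negative fold changes, the Mrps18 paralogs, Mrps30 and Mrps36, and from other lists up to 3 by smallest p. Lengths and positions come from GENCODE M21 (GRCm38, the assembly of mm10). Every pair of libraries differed by more than sampling noise. The labels do not say that libraries came from separate animals, so the spread behind each p-value is that between libraries and may be technical. The counts carry no molecular identifiers, so floors cover counting error only. A longer motif of the nuclear respiratory factor was also searched in the promoters and is not reported here.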

Additional observations from a re-analysis of the deposited data

How the results depend on the processing

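No member was called under any alternative, and over all genes 0 were called except by DESeq2 (33) and without a filter (1). The members' median log2 fold change of -0.33 moved to -0.16 by limma-voom, only just more than the spread between libraries (pooled SD 0.168). It lay between -0.38 and -0.22 over the libraries left out in turn. The subunit medians and the cytosolic median moved by less than their own pooled SDs in every alternative (0.158 large, 0.186 small, 0.256 cytosolic). The small-subunit median by limma-voom (-0.22) and the cytosolic median without sgRosa replicate 1 (-0.20) came close to that limit. The ranges over the libraries left out were -0.36 to -0.21 (large), -0.47 to -0.31 (small) and -0.53 to -0.20 (cytosolic). Of 425 values of 25 named members under the alternatives, 415 kept their direction and 10 reversed, all of members near 0. With the length trend removed Mrpl28 was at 0.071 and Mrpl27 at 0.078, by limma-voom Mrps14 was at 0.093, and without the libraries with choroid plexus RNA Mrpl28 was at 0.015 and Mrps30 at 0.018. With libraries left out in turn, Mrpl28 lay between -0.27 and 0.048, Mrps14 between -0.24 and 0.079, Mrpl57 between -0.056 and 0.35 and Mrps30 between -0.31 and 0.0035. The cause of these shifts was not tested.

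The replicate numbers matched the libraries only in part. Deviations from the group means correlated at -0.03, 0.48 and 0.28 for numbers 1, 2 and 3. For numbers 2 and 3 the library of the same number was the best match in the other group. sgEgfr replicate 1 instead correlated best with sgRosa replicate 3 (0.21). With the replicate block 0 members and 0 genes were called, and the members' median was -0.32 with 69 negative. Depth limits the scarce members most: Mrps36 and Mrps18b had 6 to 55 counts per library.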
